A study of Homo sapiens with 6 samples.

Results

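Transcripts of 10 genes were followed in cultured ovarian cancer cells exposed to a PARP inhibitor. The genes encode 5 cyclin-dependent kinases (CDKs), namely CDK1, CDK2, CDK4, CDK6 and CDK12, and 5 CDK inhibitors, namely CDKN1B, CDKN1C, CDKN2A, CDKN2B and CDKN2C. They were chosen by name for their role, and their symbols were matched to Ensembl identifiers. All 10 were among the 63677 genes of the counts table and among the 21729 with more than 10 reads in total over the samples. The cells were UWB1.289, a human ovarian carcinoma line that lacks functional BRCA1, a protein of homologous recombination repair. One group of 3 samples received the PARP inhibitor Olaparib for 24 h and the other group of 3 received the vehicle DMSO. The dose was 4 µM by the sample labels and the study's methods, whereas the design text of the series gives 10 µM. No other treatment or genotype was included, so every value comes from 1 line, whose genotype the labels list as WT.

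CDKs are kinases that work only when bound to a cyclin. CDK4 and CDK6 pair with D-type cyclins and start the phosphorylation of the retinoblastoma protein, which frees E2F transcription factors to switch on the genes of DNA replication. CDK2 follows with E- and A-type cyclins in S phase, and CDK1 with A- and B-type cyclins drives entry into mitosis. CDK12 stands apart, since with cyclin K it phosphorylates RNA polymerase II and sustains the transcription of long DNA repair genes. Inhibitors of the INK4 family (CDKN2A, CDKN2B and CDKN2C here) bind CDK4 and CDK6, whereas those of the Cip/Kip family (CDKN1B and CDKN1C here) bind cyclin-CDK complexes more broadly. PARP inhibitors hold PARP1 on DNA and leave breaks that replicating cells must deal with, which connects the drug to the machinery described here.

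Libraries were deep and alike. Total counts per sample lay between 35360458 and 39640775, and TMM scaling factors between 0.995 and 1.01. Over all genes, the common biological coefficient of variation was 0.0353. The epithelial keratin KRT18 had at least 132493 normalised reads in every sample, and PAX8, a Müllerian lineage factor, averaged 12263 with Olaparib and 11423 with DMSO. WT1, another marker of serous tumours, had 8 reads in all 6 samples together. Of the 10 tested markers of ovarian and epithelial cells, PAX8 (log2 fold change 0.10, adjusted p = 0.0399, edgeR) and CLDN4 (0.14, adjusted p = 0.0271) were higher with Olaparib and 0 were lower. Over all genes, 2.15% were higher and 1.21% lower at an adjusted p under 0.05. Both PAX8 and CLDN4 lost the call in several of the fits that left out a sample. Of 10 markers of blood, endothelial and stromal cells, PECAM1, CD3E, COL3A1 and DCN had 0 to 6 reads in total and CD68 had 56, while others were present at low levels. COL1A1 was at 276 ± 53.5 normalised reads with Olaparib and 297 ± 17.6 with DMSO (SD, n = 3), PTPRC at 70.7 ± 5.43 and 63.8 ± 11.2 (log2 fold change 0.15, adjusted p = 0.727, edgeR) and ACTA2 at 63.9 ± 7.58 and 58.6 ± 2.67 (0.12, adjusted p = 0.784). VWF was at 67.3 ± 3.17 with Olaparib and 41.8 ± 1.96 with DMSO. VWF was the 1 call among the 6 of them tested (adjusted p = 0.0106 in edgeR, 0.0710 in DESeq2), and the part of such markers in the results was not tested. Because RNA came from whole cultures, a change in how many cells were in a given cell cycle phase and a change in RNA per cell cannot be told apart in any value that follows.

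The promoter of CDK1 is shown first because CDK1 was the member that passed the test, and the promoters of its partners CCNB1 and CCNB2 (cyclins B1 and B2) because they rose with it. Genes of this kind are known to be regulated through a cell cycle homology region (CHR) and CCAAT boxes, the latter bound by NF-Y. The sequences are from RefSeq on GRCh38.p14, read 5′ to 3′ on the plus strand, and capitals mark the CHR letters TTTGAA and the CCAAT box on either strand (ATTGG when reversed). For CDK1, which has 2 RefSeq starts in the table, at 60778331 and 60778478, 2 short stretches upstream of the second are given, chr10:60778388-60778417 and chr10:60778448-60778477, which other CDK1 transcripts in the annotation include in an exon. For CCNB1 the stretch is chr5:69167050-69167134, and for CCNB2 it is chr15:59105016-59105125, and neither overlapped an annotated exon.
CDK1 distal: agctgggctctgATTGGctgcTTTGAAagt
CDK1 proximal: ccctttagcgcggtgagTTTGAAactgctc
CCNB1: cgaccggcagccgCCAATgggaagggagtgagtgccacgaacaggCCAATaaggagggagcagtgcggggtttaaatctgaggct
CCNB2: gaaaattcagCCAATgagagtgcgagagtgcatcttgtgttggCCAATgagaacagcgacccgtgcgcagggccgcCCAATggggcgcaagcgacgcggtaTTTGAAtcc

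Windows from 250 bases upstream to 50 downstream of a start were matched for 8 of the 10 genes, with 13 windows in all, since some genes have several starts. CDK2 and CDKN1C had no window in the promoter set used and were not searched. In the window of the second CDK1 start the CHR letters lay at -69, -13 and 10 and the CCAAT box at -78 and -46, counted in bases from that start. The window of the first start held them at -161 and -150. CCNB2 held CCAAT at -244, -120, -87 and -54 and the CHR letters at -29, whereas CCNB1 held CCAAT at -87 and -55 and no TTTGAA. The phosphatase gene CDC25B, which also rose, was searched too, and none of its windows held TTTGAA. It held CCAAT at -169 and -73, each counted from a different start. Promoters of CCNA1 and CCNE1, cyclin genes that rose as well, were not searched. Of the 8 genes, CDK1 alone held the CHR letters, in 2 of the 13 windows, against 15.2% of all 35116 windows. The 2 shares are close, so this is not a result about the group. CDK1, CDKN1B and CDKN2C held CCAAT, in 4 of the 13 windows, against 34.6% of all. Both together were found in the 2 CDK1 windows and in 5.90% of all windows. The E2F letters TTTCCCGC, TTTGGCGC, TTTCGCGC or TTTGCCGC were found in CDK1 alone, at a single site that both of its windows cover, and in 3.31% of all windows. The SP1 letters GGGCGG were found in 9 of the 13 windows, which belong to 7 genes, CDK12 being the exception, and in 45.0% of all windows. All motifs were searched on both strands, and an SP1 match of CCNB2 at -58 overlaps its CCAAT match at -54. These matches describe letters in a window and no binding was measured.

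CDK1 rose after Olaparib, and it was the member that passed the test across all genes. The quasi-likelihood test of edgeR was used, with p-values adjusted by the Benjamini-Hochberg method over all genes tested and a threshold of 0.05. By this rule 1 of the 10 genes was higher and 0 were lower. At that threshold 3.36% of the 21729 genes passed in either direction, 2.15% higher and 1.21% lower, so a count of 1 in 10 is not a result about the group. By unadjusted p under 0.05, 2 members were higher and 0 lower, against 7.83% and 6.97% of all genes. No member passed a fold change of 1.2 in addition, which 1.21% of all genes did. The log2 fold changes of the 10 genes ran from -0.13 for CDKN2C to 0.18 for CDK1, with a median of 0.039, against a median of -0.0042 over all genes. All 5 kinases had positive values, and of the 5 inhibitors CDKN1B, CDKN1C and CDKN2C had negative ones.

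**Figure D1:**
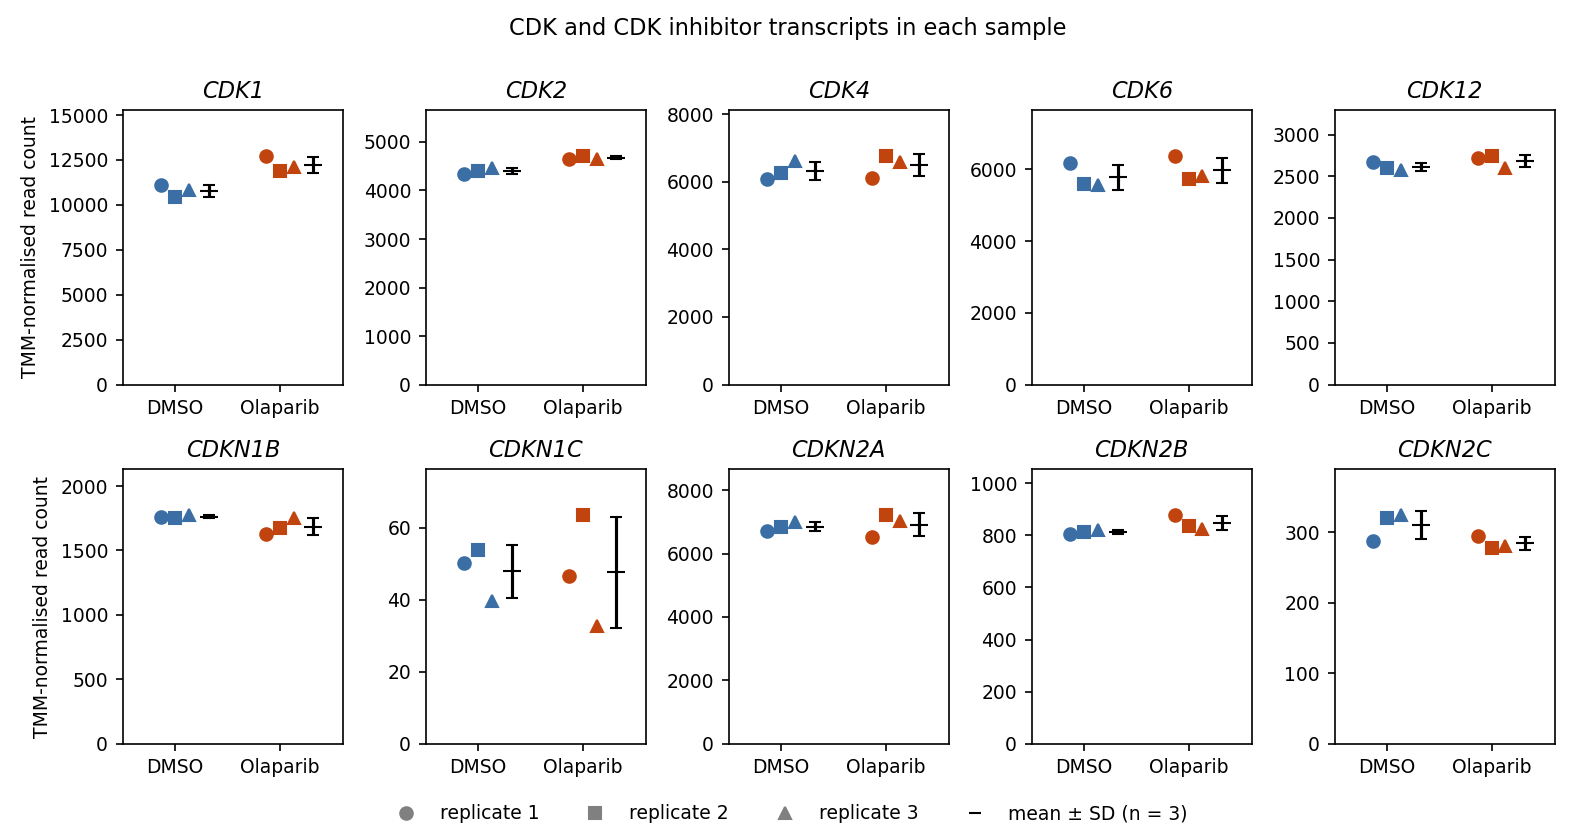
TMM-normalised read counts (y axis, from 0, a scale for each gene) of the 10 genes in each of the 3 DMSO samples (blue) and 3 Olaparib samples (orange), with the mean ± SD beside them. All 3 Olaparib samples of CDK1 lie above the 3 DMSO samples, the CDK4, CDK6 and CDKN2A groups overlap, and CDKN1C is spread widely at low counts.

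Among the cell cycle kinases, CDK1 (ENSG00000170312, chromosome 10, 60778331 to 60794852, plus strand of GRCh38) had 12720, 11875 and 12105 normalised reads in the Olaparib samples and 11090, 10421 and 10822 in the DMSO samples. The lowest Olaparib sample stood above the highest DMSO sample. The means were 12233 ± 437 and 10778 ± 337 (SD, n = 3 each). This was a log2 fold change of 0.18 (standard error 0.031), or 13.5% more transcript with a 95% interval of 8.73 to 18.5%, and the adjusted p from edgeR was 0.000195. CDK1 passed in all 6 fits that left out a sample, with log2 fold changes of 0.16 to 0.21, and in all 7 fits with other tests, scalings, filters or a replicate block. None of its exonic bases overlapped another gene, and no stretch of 50 bases of its main transcript was found in the transcripts of another gene.

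CDK2 (ENSG00000123374, chromosome 12, 55966781 to 55972789, plus strand), the S phase kinase, had 4654, 4711 and 4658 normalised reads with Olaparib and 4344, 4407 and 4470 with DMSO. These groups did not overlap either, but the distance between them was small. The log2 fold change was 0.085 (standard error 0.033), or 6.06% with an interval of 1.24 to 11.1%, and with an adjusted p of 0.180 in edgeR's test it did not pass. Exons of PMEL and of a long non-coding RNA on the opposite strand cover 16.8% of its exonic bases. How far reads of these could be counted for CDK2 was not tested, and PMEL itself averaged 126 ± 12.4 reads with Olaparib and 104 ± 12.6 with DMSO.

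CDK4 and CDK6, the partners of D-type cyclins, differed between samples of one condition more than between conditions. CDK4 (ENSG00000135446, chromosome 12, 57747727 to 57756013, minus strand) had 6118, 6758 and 6585 normalised reads with Olaparib and 6082, 6251 and 6608 with DMSO. The change was 2.73% with an interval of -2.30 to 8.02% (adjusted p = 0.682, edgeR). CDK6 (ENSG00000105810, chromosome 7, 92604921 to 92836573, minus strand) had 6371, 5725 and 5812 normalised reads with Olaparib and 6163, 5594 and 5563 with DMSO. In both genes the samples of the 2 conditions overlapped. For CDK6 the change was 3.42% with an interval of -2.05 to 9.20% (adjusted p = 0.617, edgeR). Of the exonic bases of CDK4, 44.2% overlap TSPAN31 on the opposite strand, so that reads from the shared bases can be assigned to CDK4 only if strand was used in counting. TSPAN31 itself stood at 843 ± 23.2 reads with Olaparib and 877 ± 32.6 with DMSO.

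For CDK12 (ENSG00000167258, chromosome 17, 39461486 to 39567559, plus strand), the transcriptional kinase linked to DNA repair genes, the Olaparib samples held 2714, 2742 and 2603 normalised reads and the DMSO samples 2668, 2604 and 2575. The groups overlapped. Its change of 2.71% had an interval of -2.79 to 8.52% (adjusted p = 0.721, edgeR). Cyclin K (CCNK), its partner, was at 2735 ± 114 reads with Olaparib and 2661 ± 67.1 with DMSO, a log2 fold change of 0.039 (adjusted p = 0.725, edgeR), and 59.5% of its exonic bases lie in exons of the opposite-strand gene CCDC85C.

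Neither Cip/Kip inhibitor passed the test. CDKN1B (ENSG00000111276, chromosome 12, 12685498 to 12722369, plus strand) encodes p27Kip1, which restrains CDK2 and is removed through SKP2 as cells enter S phase. Its samples held 1626, 1674 and 1754 normalised reads with Olaparib and 1760, 1755 and 1775 with DMSO. All 3 Olaparib samples were below all 3 DMSO samples, the closest samples by less than 2 reads. The log2 fold change was -0.066 (standard error 0.042), or -4.47% with an interval of -9.97 to 1.37% (adjusted p = 0.506, edgeR). CDKN1C (ENSG00000129757, chromosome 11, 2883213 to 2885775, minus strand) encodes p57Kip2 and lies in an imprinted cluster. It was close to the limit of what these libraries measure, at 46.5, 63.6 and 32.8 normalised reads with Olaparib and 50.2, 53.9 and 39.8 with DMSO. A change of -0.716% came with an interval of -24.9 to 31.2% (adjusted p = 0.989, edgeR), and the sign turned when any of 4 samples was left out, so changes within that interval were not detectable at this depth.

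Of the 3 INK4 inhibitors none passed, and CDKN2A was expressed at a high level. CDKN2A (ENSG00000147889, chromosome 9, 21967752 to 21995301, minus strand) encodes p16INK4a and, in another reading frame, p14ARF, which a count per gene does not separate. It had 6523, 7212 and 7012 normalised reads with Olaparib and 6708, 6849 and 6999 with DMSO, and the DMSO samples all fell between the Olaparib samples. The change was 0.920% with an interval of -3.76 to 5.83% (adjusted p = 0.910, edgeR), and without Olaparib replicate 2 its log2 fold change was -0.017 instead of 0.013. The antisense RNA CDKN2B-AS1 overlaps 15.3% of its exonic bases but held only 51.7 ± 9.32 reads with Olaparib and 39.5 ± 4.68 with DMSO.

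CDKN2B (ENSG00000147883, chromosome 9, 22002903 to 22009305, minus strand), the neighbouring gene for p15INK4b, had 878, 838 and 826 normalised reads with Olaparib and 805, 814 and 820 with DMSO. Its groups did not overlap, but the interval of the change, 4.18% (-2.55 to 11.4%), included 0 and the adjusted p was 0.622 (edgeR). CDKN2C (ENSG00000123080, chromosome 1, 50960745 to 50974634, plus strand), which encodes p18INK4c, had 294, 278 and 280 normalised reads with Olaparib and 287, 320 and 324 with DMSO. DMSO replicate 1 lay among the Olaparib samples. CDKN2C had the largest negative value of the 10 genes, a log2 fold change of -0.13 (standard error 0.073), or -8.55% with an interval of -17.5 to 1.39% (adjusted p = 0.433, edgeR). An antisense non-coding RNA overlaps 20.4% of its exonic bases.

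CDKN2A and CDKN2B are related genes, and reads from bases they share cannot be assigned to one of them. Of all 50-base stretches in the main transcripts, 3.34% of those of CDKN2A and 0.815% of those of CDKN2B were identical in the other gene. Counts of the pair are therefore separable over most of their length.

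Taken over the 10 genes, 3 had all Olaparib samples above all DMSO samples (CDK1, CDK2 and CDKN2B) and 1 had them below (CDKN1B). Over all genes 19.3% had groups that did not overlap, 10.0% higher and 9.29% lower. Within both conditions the replicate numbered 1 held the lowest CDK4 and CDKN2A counts and the highest CDK6 count. These genes were picked out after the values were seen. Over 11997 genes, the deviations of the samples numbered 1 from their group means had a correlation of -0.15. The likeness is therefore stated for these genes only.

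Levels of different genes were compared per kilobase of annotated exon (CPM per kb, the union of all exons, mean over 6 samples). CDK1 stood highest at 78.7 ± 5.95 CPM per kb, followed by CDK4 at 55.3 ± 2.47, CDKN2A at 47.4 ± 1.69 and CDK2 at 31.2 ± 1.05. CDK6 was at 12.8 ± 0.712. The remaining kinase and 3 inhibitors formed a lower tier, with CDKN2B at 5.55 ± 0.174, CDK12 at 5.46 ± 0.139, CDKN1B at 4.98 ± 0.173 and CDKN2C at 2.63 ± 0.177 CPM per kb. CDKN1C was lowest at 0.515 ± 0.116. Neighbours in this order did not overlap over the 6 samples, except CDKN2B and CDK12, where CDKN2B was higher in 4 of 6. The level of CDKN2A was thus between those of CDK4 and CDK2, and above that of CDK6 in every sample.

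This order depends on the length used. Union exons count every annotated transcript, and CDKN2A has 3885 union bases but a main transcript of 978 bases. Per kilobase of the main transcript, a measure added after the data were seen, CDKN2A was highest at 188 ± 6.70 CPM per kb and CDK1 next at 163 ± 12.3, with CDKN2A above in 5 of 6 samples. CDKN1B was then at 19.1 ± 0.663, above CDK6 at 13.5 ± 0.747. CDKN2C at 7.98 ± 0.536 was above CDKN2B at 5.76 ± 0.180, and CDKN1C remained lowest at 0.720 ± 0.163.

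**Figure D2:**
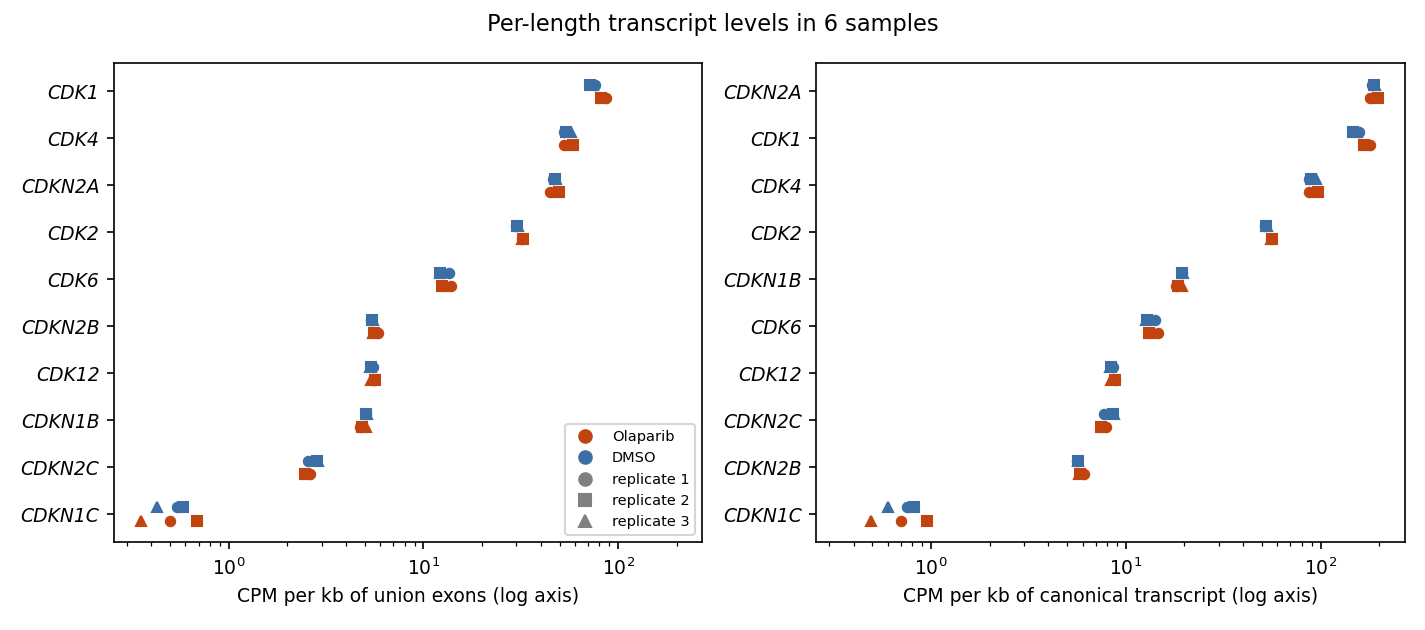
Per-length levels of the 10 genes in each of the 6 samples (log x axis), in CPM per kb of union exons (left) and of the main annotated transcript (right, a measure added after the data were seen). The range over samples is narrow beside the differences between genes, and CDKN2A moves from the third place (47.4 CPM per kb) to the first (188 CPM per kb) with the choice of length.

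The balance between inhibitor and kinase transcripts was compared within each sample, as log2 ratios of levels per kb of union exons, which do not depend on library size. The sum of CDKN1B and CDKN1C over the sum of CDK1 and CDK2 was at -4.52, -4.36 and -4.41 with Olaparib and at -4.23, -4.17 and -4.24 with DMSO. Every Olaparib value was lower than every DMSO value. The difference was -0.22, with group means of -4.43 ± 0.080 and -4.21 ± 0.039, and the exact two-sided permutation test gave p = 0.1 (0.15 after Benjamini-Hochberg adjustment over 3 ratios). With 3 samples against 3 this test cannot give a p below 0.1, so no ratio could pass. CDK1, the member that rose, makes up most of the denominator here.

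For the INK4 sum (CDKN2A, CDKN2B and CDKN2C) over CDK4 and CDK6 the log2 ratio was -0.31 ± 0.013 with Olaparib and -0.28 ± 0.019 with DMSO. These groups did not overlap, but the difference of -0.030 was small (exact permutation p = 0.1, adjusted 0.15). The negative sign of this ratio holds for union exons only. Per kb of the main transcript, mean CDKN2A at 188 CPM per kb exceeded the sum of CDK4 at 91.7 and CDK6 at 13.5. The difference between conditions was not computed on that length. CDKN2C alone over CDK4 and CDK6 was at -4.78 ± 0.089 and -4.61 ± 0.076, and these groups overlapped (exact permutation p = 0.2, adjusted 0.2).

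Cyclins, the partners that give CDKs their activity, were a list of 11 genes. Of these, 4 rose and 2 fell at an adjusted p under 0.05, and 2 (CCNA1 and CCNE2) also passed a fold change of 1.2. Over all genes 2.15% rose, 1.21% fell and 1.21% passed the fold as well. Those shares include genes with few reads. Every cyclin listed averaged more than 100 reads per sample. Of the 11997 genes averaging 100 reads or more, 440 rose, 227 fell and 199 passed the fold as well. The median log2 fold change of the list was 0.039. Cyclin B1 (CCNB1), with which CDK1 enters mitosis, rose from 7760 ± 161 to 8566 ± 46.7 normalised reads (log2 fold change 0.14, adjusted p = 0.00297, edgeR). Cyclin B2 (CCNB2) rose from 3314 ± 85.8 to 3685 ± 71.3 (0.15, adjusted p = 0.0113), and its adjusted p was 0.0633 without Olaparib replicate 3 and 0.0574 without DMSO replicate 2. Cyclin A1 (CCNA1), best known from germ cells, rose from 772 ± 26.3 to 932 ± 22.2 (0.27, adjusted p = 0.000378). For cyclin A2 (CCNA2), the common S phase and G2 form, the value was 0.077, which did not pass (adjusted p = 0.275).

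The E-type cyclins, both partners of CDK2, moved in opposite directions. CCNE1 had 3587, 3604 and 3543 normalised reads with Olaparib and 3136, 3233 and 3215 with DMSO, and rose by 0.16 on the log2 scale (adjusted p = 0.00580, edgeR). CCNE2 had 1010, 831 and 918 with Olaparib and 1269, 1116 and 1196 with DMSO, and fell by 0.38 (adjusted p = 3.65e-05). The groups of neither gene overlapped. Exons of genes on the opposite strand cover 37.1% of the exonic bases of CCNE2 and none of those of CCNE1. Within a sample, the log2 ratio of CCNE1 to CCNE2 normalised reads was 1.96 ± 0.14 with Olaparib and 1.42 ± 0.11 with DMSO. It is not scaled by gene length, was added after the data were seen and was not tested.

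Among the D-type cyclins, the partners of CDK4 and CDK6, CCND2 fell from 14633 ± 297 to 13230 ± 485 normalised reads (log2 fold change -0.15, adjusted p = 0.00229, edgeR). For CCND1, which had the most reads of the list, the value was -0.059 on the log2 scale (adjusted p = 0.262), and for CCND3 it was 0.017 (adjusted p = 0.913). Changes of CDK4 and CDK6 themselves did not pass, as given above.

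**Figure D3:**
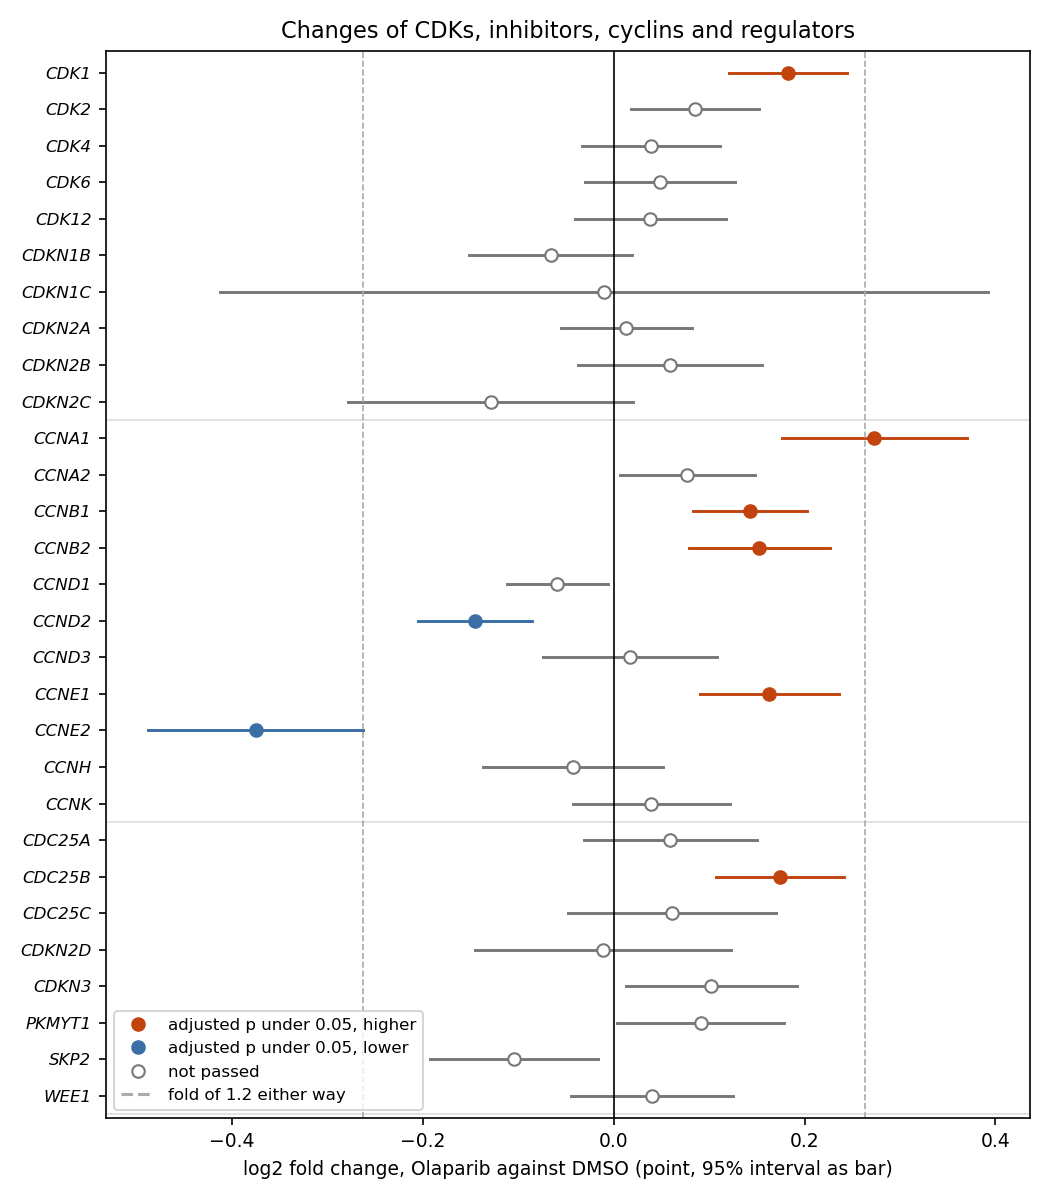
Log2 fold change of Olaparib against DMSO (x axis, point) with its 95% interval (bar) for the 10 genes (top), the 11 cyclins (middle) and 8 regulators with a direct role (bottom). Filled points passed an adjusted p under 0.05, orange for higher and blue for lower, and dashed lines mark a fold of 1.2: CDK1 at 0.18 is the filled point among the 10 genes, against 6 among the cyclins.

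Of 16 other CDK genes, 0 passed in either direction in edgeR's test and in all alternatives tried. In edgeR's test 3.36% of all genes passed. At an unadjusted p under 0.05, 1 was higher and 1 lower, against 7.83% and 6.97% of all genes. These counts are not a result about the list, whose median log2 fold change was -0.0057. The values furthest from 0 among those with a mean count of at least 20 were those of CDK11A (-0.19, adjusted p = 0.507, edgeR) and CDK9 (0.11, adjusted p = 0.200). CDK11A shares 48.1% of its exonic bases with another annotated gene on its strand. CDK9, the kinase of the elongation factor P-TEFb, was at 1664 ± 24.3 reads with Olaparib and 1545 ± 62.5 with DMSO.

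A list of 21 regulators of CDK activity, such as phosphatases, inhibitory kinases and degradation factors, held 1 gene that rose and 0 that fell, against 2.15% and 1.21% of all genes, which is not a result about the list. Its median log2 fold change was 0.048. CDC25B, a phosphatase that activates CDK1 in G2, had 5205, 5503 and 5392 normalised reads with Olaparib and 4704, 4815 and 4751 with DMSO. The lowest Olaparib sample exceeded the highest DMSO sample, and the log2 fold change was 0.17 (adjusted p = 0.00107, edgeR). With a mean count of at least 20, the values furthest from 0 after it were those of CDK5R1, an activator of CDK5 (-0.13, adjusted p = 0.421), and RBX1, a subunit of SCF ubiquitin ligases (-0.13, adjusted p = 0.189). The kinases that hold CDK1 inactive, WEE1 (0.040, adjusted p = 0.729) and PKMYT1 (0.091, adjusted p = 0.307), and the CDKN1B-degrading factor SKP2 (-0.10, adjusted p = 0.218) did not pass either. They, with CDC25A, CDC25C, CDKN2D and CDKN3, were picked out for their role after the values were known.

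E2F target genes, which stand downstream of CDK4, CDK6 and CDK2, were a list of 24. Of these, 0 rose and 3 fell, against 2.15% and 1.21% of all genes. The list was drawn with earlier results known and leaves out CDK1, which rose and whose windows held E2F letters. The count of 0 that rose therefore depends on how the list was drawn. The median log2 fold change was -0.037, with 8 positive and 16 negative values. In 11 genes all Olaparib samples lay below all DMSO samples, as in 9.29% of all genes. These shares of all genes include genes with few reads. Of the 11997 genes averaging 100 reads or more, 440 rose and 227 fell. Among these, all Olaparib samples lay below all DMSO samples in 1300 and above them in 1661. MCM6, a subunit of the replicative helicase, had 3324, 3278 and 3259 normalised reads with Olaparib and 3779, 3885 and 3848 with DMSO (log2 fold change -0.22, adjusted p = 9.91e-05, edgeR). UNG, a uracil-DNA glycosylase of base excision repair, had 4080, 4043 and 4122 with Olaparib and 4537, 4747 and 4828 with DMSO (-0.20, adjusted p = 0.000216). Both were lower in all 3 Olaparib samples by a margin wider than either group's range. RRM2, the small subunit of ribonucleotide reductase, fell from 7707 ± 110 to 7120 ± 129 reads (-0.11, adjusted p = 0.0246), but in 4 of the 6 fits that left out a sample its adjusted p was 0.0823 to 0.154.

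**Figure D4:**
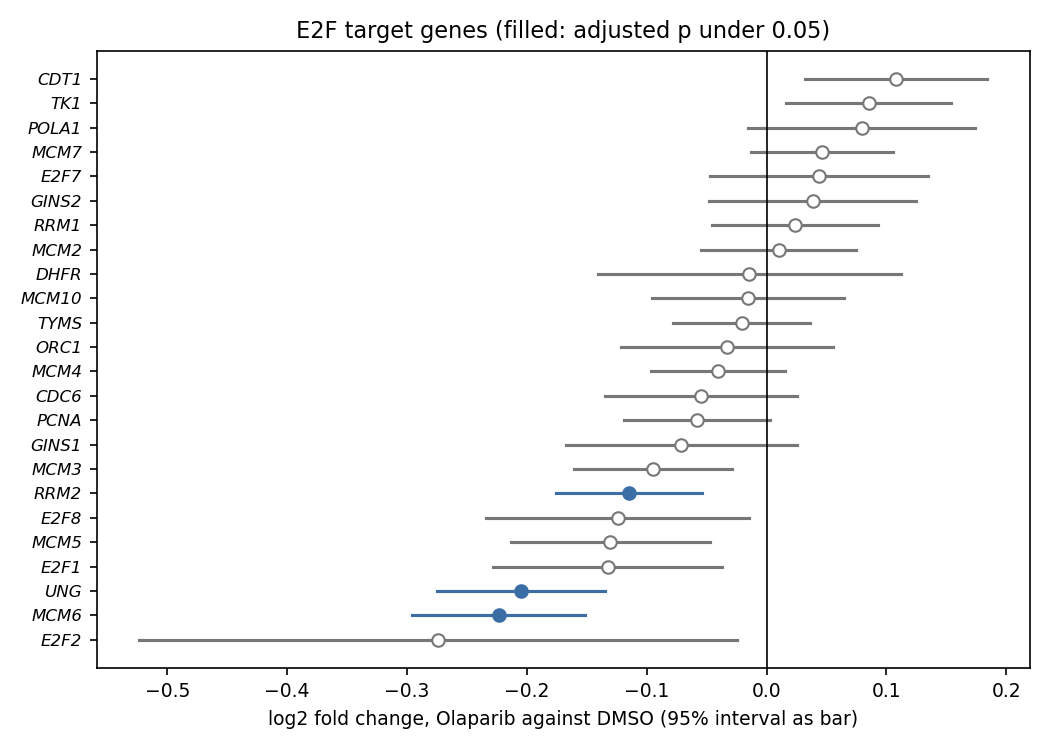
Log2 fold change of Olaparib against DMSO (x axis, point) with its 95% interval (bar) for 24 E2F target genes, sorted by value. The filled points of RRM2, UNG and MCM6 passed an adjusted p under 0.05, all on the negative side, and 16 of the 24 values are below 0.

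At the chromosome 9 and chromosome 11 loci of the inhibitors, 7 of 10 neighbouring genes had enough reads to be tested. Of these, 0 passed in edgeR's test, against 3.36% of all genes. At an unadjusted p under 0.05, 1 was higher and 2 lower, against 7.83% and 6.97% of all genes. MTAP, a methionine salvage enzyme next to CDKN2A, was at 1946 ± 26.2 reads with Olaparib and 2010 ± 88.1 with DMSO. CDKN2B-AS1 had the largest value, a log2 fold change of 0.39 (adjusted p = 0.307, edgeR) at the low counts given above. Near CDKN1C, the value of SLC22A18 was -0.24 on the log2 scale (adjusted p = 0.163, edgeR). KCNQ1OT1, the antisense RNA of that imprinted domain, was at 535 ± 23.1 reads with Olaparib and 522 ± 43.1 with DMSO, and the imprinted genes H19 and IGF2 had 0 and 6 reads in total.

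The genes whose pattern over the 6 samples was most like that of CDK1, by Pearson correlation of log2 CPM among 11996 others with a mean count of at least 100, were ESM1 (r = 0.998), ITGB6 (r = 0.994) and VCAN (r = 0.993). ESM1 encodes a secreted proteoglycan, ITGB6 an integrin subunit and VCAN versican, a proteoglycan of the extracellular matrix. With 6 samples in 2 conditions and the same libraries behind every point, such values describe the likeness only. Their log2 fold changes were 0.37, 0.12 and 0.23.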

How the data were processed

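RNA-seq of 6 samples was used, 3 per condition, described by the study as independent replicates and grouped by the sample labels. The authors prepared stranded poly(A) libraries, trimmed reads (Trimmomatic), mapped them to GRCh38 (STAR), marked duplicates (Picard MarkDuplicates) and counted reads per gene (featureCounts). Its strand setting and the removal of duplicates are not given in the sources used here. The authors deposited whole-number read counts per gene, without normalisation. Unannotated identifiers took 0.561 to 0.600% of counts.

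The filter kept 21729 genes, those whose total exceeded 10 counts. Counts were scaled by TMM and compared with edgeR 4.0.16's quasi-likelihood test (R 4.3.3), without a replicate term, with Benjamini-Hochberg adjustment. Normalised reads are counts scaled to the mean effective library size. Intervals are 95%. P-values and intervals rest on a spread between samples that edgeR estimates partly from all genes (33.3 degrees of freedom for each gene). They therefore do not follow the spread of a gene's own samples alone. Counting error alone is smaller than the spread between samples: chi-square per degree of freedom between replicates was 1.81 to 4.11. Gene models came from GENCODE release 44 (GRCh38), which held 81.9% of identifiers. The main transcript is the annotation's canonical one. Alternatives were DESeq2 1.42.0, limma 3.58.1 (voom), other scalings and filters, a replicate block and leaving out each sample. The fit was tried on simulated counts, whose results are not quoted.

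Members and gene lists were chosen with earlier results of these data known. Named genes were all members and, from each list, those with an adjusted p under 0.05 (if fewer than 2, the 2 values furthest from 0 with a mean count of at least 20). Markers and neighbours of the inhibitor genes were also named where given as present or absent. The cyclins CCNA2, CCND1, CCND3 and CCNK did not pass and were named outside this rule, as were the regulators picked for their role. Proteomic data of the study were not analysed here. A sequence and the values of a marker gene are not reported here.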

Additional observations from a re-analysis of the deposited data

How the results depend on the processing

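CDK1 was the 1 member that passed in all 6 fits without a sample and all 7 others. For the other 9 members no alternative passed, and the direction turned for CDKN1C without Olaparib replicate 1 (0.0060), Olaparib replicate 3 (0.20), DMSO replicate 1 (0.025) or DMSO replicate 2 (0.085) and for CDKN2A without Olaparib replicate 2 (-0.017, log2). With a sample left out these ranged from -0.27 to 0.20 for CDKN1C and from -0.017 to 0.056 for CDKN2A. Genes with an adjusted p under 0.05 numbered 730, and 398 (without DMSO replicate 2) to 870 (without Olaparib replicate 1) with a sample left out, 439 without Olaparib replicate 3 and 401 without DMSO replicate 3. With a fold over 1.2 there were 262, with DESeq2 150, with a log2 fold over 1.5 10, and 178 to 237 with a sample left out. The replicate block gave 1322 genes, 2 CDK regulators in place of 1, 7 E2F targets in place of 3, 1 locus neighbour in place of 0 and 6 ovarian markers in place of 2. Same-numbered samples deviated from their group means with correlations of -0.15, 0.26 and -0.27. Deviations from a mean of 3 samples depend on one another, so these values cannot decide whether the numbers pair the samples. The neighbours' count was 0 to 1 with a sample left out (1 without Olaparib replicate 3). Ovarian markers passing were 4 with voom, 1 with upper quartile scaling, 4 with no filter and 0 to 5 with a sample left out, and VWF, the 1 marker of other cells, gave 0 calls with DESeq2. The causes were not tested. Counts of under 100 reads, as for CDKN1C, limit what can be detected, and some changes wider than its interval could be missed too. The interval is not adjusted for the number of genes, whereas a call is. At similar counts CDKN2B-AS1 had a log2 fold change of 0.39 with an interval of 0.015 to 0.76, and its adjusted p in edgeR was 0.307.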

Other observations

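CDK4 and CDKN2A kept a nearly constant proportion in the Olaparib samples. Their log2 ratio was -0.092, -0.094 and -0.091 with Olaparib and -0.14, -0.13 and -0.083 with DMSO, while each gene's counts varied by 5.10% and 5.13% (coefficient of variation) over the same Olaparib samples. The ratio was picked after the values were seen and was not tested. In contrast, the log2 ratio of CDK4 to CDK6 ranged from -0.058 to 0.24 with Olaparib and from -0.019 to 0.25 with DMSO. CDK1 and CCNB1 rose together, and the log2 ratio of CDK1 to CCNB1 was 0.51 ± 0.057 with Olaparib and 0.47 ± 0.066 with DMSO, with overlapping groups. The log2 ratio of CDK1 to CDK2 differed by 0.098 between the conditions (SD 0.059 with Olaparib and 0.056 with DMSO), also with overlap, so these data do not show that CDK1 changed by another amount than CDK2.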
